A study of Mus musculus with 8 samples.

Results

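The cells described here are cortical microglia with high levels of Ccl3 and Ccl4, taken from single-cell RNA libraries of mouse brain. Members were selected on measured values. A cell was a member when it had at least 60 UMIs per 10000 (CP10k; a UMI is 1 counted RNA molecule) of C1qa, C1qb and Ctss together, at least 10 CP10k of P2ry12, Tmem119 and Cx3cr1 together, and at least 20 CP10k of Ccl3 and Ccl4 together. It also had to stay under 20 CP10k for Mrc1, Pf4 and Lyz2 (macrophages), for Cldn5, Flt1 and Pecam1 (endothelium), and for Cd74, H2-Aa, H2-Ab1 and H2-Eb1 (MHC class II). The rule selected 4257 of the 50254 cells with at least 500 genes and under 15% mitochondrial UMIs. The same gate with Ccl3 and Ccl4 under 20 CP10k gave 3154 low cells, so the members were 4257 of 7411 gated microglia. A further 73 cells met the microglia part of the gate but exceeded the MHC class II limit, 62 of them in the Lama4-/- library, and were in neither class.

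The study compared mice with a deleted laminin alpha chain gene with wild-type (WT) mice, in 2 experiments, each with its own WT control. The groups were Lama4-/- mice, their WT controls, Tek-Cre:Lama5-/- mice, and separate WT controls for these. Tek-Cre is a recombinase driven by the Tek promoter, which is active in endothelium and also in blood cell lineages. All mice were 8 weeks old, and the labels give a pool of 3 brains per group. They do not say whether both samples of a group came from 1 pool. The samples were treated as libraries of 1 pool, and variation among mice is then not part of any SD or p-value given here. Each group had 2 samples, but both Lama4-/- samples held the same matrix and counted as 1 library, which left 7. Cortical tissue of all groups was digested with papain, DNase and Liberase at 37 °C and freed of myelin before Chromium 3' libraries were made.

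Ccl3 and Ccl4 encode MIP-1 alpha and MIP-1 beta, chemokines that attract leukocytes through receptors such as Ccr1. Microglia, the resident macrophages of the brain, make little of either at rest and transcribe both within a short time of stimulation through NF-kB and AP-1 factors. Enzymatic dissociation of brain tissue at warm temperature is a known stimulus of these genes. Whether the members were in this state in the animal cannot be told apart from a response to digestion, since every library was digested.

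Ccl3 (ENSMUSG00000000982) lies on the reverse strand at chr11:83647844-83649355 and Ccl4 (ENSMUSG00000018930) on the forward strand at chr11:83662584-83664683 (GENCODE M21, GRCm38). To show the regulatory letters, the 250 bases before the start site are given for Ccl3, for the cytokine and chemokine genes Il1b, Csf1, Il1a, Cxcl10 and Tnf, which are among the genes that differed most between high and low cells, and for the NF-kB inhibitor Nfkbia, which differed less (RefSeq, GRCm38.p6, 5′ to 3′ on the gene's strand, which is the reverse strand for all of them). Capitals mark matches to an NF-kB consensus of 10 letters, to the AP-1 letters TGANTCA, to the CRE letters TGACGTCA or to the TATA letters TATAAA, searched on both strands.
Ccl3 (chr11:83649379-83649628): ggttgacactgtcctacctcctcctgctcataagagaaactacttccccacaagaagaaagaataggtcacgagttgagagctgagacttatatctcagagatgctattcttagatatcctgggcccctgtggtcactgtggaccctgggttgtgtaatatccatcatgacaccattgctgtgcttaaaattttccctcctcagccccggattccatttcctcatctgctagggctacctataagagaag
Il1b (chr2:129371140-129371389): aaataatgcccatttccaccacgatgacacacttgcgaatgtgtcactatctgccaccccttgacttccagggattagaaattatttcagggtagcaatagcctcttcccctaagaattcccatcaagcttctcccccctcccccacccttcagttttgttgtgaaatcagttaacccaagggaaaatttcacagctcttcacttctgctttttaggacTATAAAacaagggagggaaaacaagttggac
Cxcl10 (chr5:92348890-92349139): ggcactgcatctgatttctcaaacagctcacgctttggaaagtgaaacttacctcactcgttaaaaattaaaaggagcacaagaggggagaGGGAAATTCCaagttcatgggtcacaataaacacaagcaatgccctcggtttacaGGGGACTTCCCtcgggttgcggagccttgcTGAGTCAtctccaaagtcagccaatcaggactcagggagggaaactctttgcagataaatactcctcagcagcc
Csf1 (chr3:107760470-107760719): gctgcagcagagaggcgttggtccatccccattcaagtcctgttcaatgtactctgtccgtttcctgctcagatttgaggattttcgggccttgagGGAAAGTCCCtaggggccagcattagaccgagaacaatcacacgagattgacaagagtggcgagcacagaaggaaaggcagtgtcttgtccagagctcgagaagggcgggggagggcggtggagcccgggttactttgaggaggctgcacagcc
Il1a (chr2:129309973-129310222): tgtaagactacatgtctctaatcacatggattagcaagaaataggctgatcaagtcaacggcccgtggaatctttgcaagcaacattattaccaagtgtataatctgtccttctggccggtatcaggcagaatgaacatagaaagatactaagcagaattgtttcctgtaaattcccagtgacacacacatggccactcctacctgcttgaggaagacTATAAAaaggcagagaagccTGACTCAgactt
Tnf (chr17:35202008-35202257): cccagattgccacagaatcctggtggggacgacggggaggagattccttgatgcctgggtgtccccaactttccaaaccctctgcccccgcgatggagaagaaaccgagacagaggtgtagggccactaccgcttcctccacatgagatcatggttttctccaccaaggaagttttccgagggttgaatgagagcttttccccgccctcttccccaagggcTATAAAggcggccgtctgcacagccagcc
Nfkbia (chr12:55492648-55492897): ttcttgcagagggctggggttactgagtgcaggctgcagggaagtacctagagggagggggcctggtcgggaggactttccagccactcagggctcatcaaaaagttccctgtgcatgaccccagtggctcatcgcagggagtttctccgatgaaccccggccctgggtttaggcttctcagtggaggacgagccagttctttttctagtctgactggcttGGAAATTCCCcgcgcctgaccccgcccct

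The Cxcl10 window held 3 NF-kB matches, 2 of them overlapping in 1 run of capitals, and an AP-1 match. Csf1 and Nfkbia each held 1 NF-kB match, and Il1a held a TATA match and an AP-1 match. The Il1b and Tnf windows held a TATA match and neither NF-kB nor AP-1 letters. None of the searched letters occurred in the Ccl3 window. Of the 15 genes named below as highest in the high cells, 12 had windows, 21 in all because some have several start sites, and 6 of these 21 windows, each of another gene, held an NF-kB match. Over all 32851 windows of this length, 7.251% held the NF-kB consensus, 6.749% the AP-1 letters, 1.546% the CRE letters and 12.37% the TATA letters. These are counts of letters and not of bound sites.

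Members were found in every library. There were 827 and 797 in the WT libraries of the Lama4 experiment, 611 in the Lama4-/- library, 399 and 373 in both WT libraries made for Lama5, and 646 and 604 in the Tek-Cre:Lama5-/- libraries. Median depth in members ran from 3074 to 7670 UMIs per cell, deeper in the Lama4 experiment, and the summed member UMIs per library from 1316813 to 6347811. The low cells were shallower in all 7 libraries, with medians from 2636 to 6974 UMIs. Only 1 member barcode occurred in more than 1 library. Lama4 had 1460 and 1353 UMIs in all kept cells of its WT libraries and 2 in the Lama4-/- library. Lama5, which Tek-Cre removes from only some cell types, was at 33.2 and 33.1 CPM (counts scaled to the library total) in all kept cells of its WT libraries and at 22.8 and 25 CPM in the Tek-Cre:Lama5-/- libraries. In the members themselves each of these laminin genes had at most 12 UMIs in any library, so deletion could not be checked there.

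The labelled cell type was set beside markers of microglia and of other cell types, some of which the gate itself limits. Csf1r and Trem2 did not enter the gate. In the members Csf1r, the receptor for CSF1, was at 1910 to 2967 CPM and Trem2 at 1475 to 2513 CPM. Summed markers of T and NK cells reached at most 20.7 CPM, those of monocytes and dendritic cells 14.3 CPM and those of fibroblasts 6.72 CPM. The 10 perivascular macrophage markers summed to 218 to 527 CPM, most of it Lyz2 (116 to 271 CPM) and Stab1 (85.3 to 243 CPM). The gate limits Lyz2, Mrc1 and Pf4, so this sum was partly fixed by the rule. Cd163 and Lyve1, which the gate does not read, stayed at 0.942 CPM or less. The 6 B lineage markers summed to 230 to 308 CPM, of which Ighm made up 187 to 287 CPM, and Cd79a and Ms4a1 did not exceed 1.10 and 0.759 CPM. Endothelial markers reached 179 CPM, but only 6 of these 9 genes are outside the rule, since the gate limits Cldn5, Flt1 and Pecam1. Mural markers reached 457 CPM and erythroid markers 846 CPM. Choroid plexus markers had the largest of these sums, 1319 CPM in the Lama4-/- library, and 18.2 to 166 CPM in the rest. In the low cells the macrophage and B lineage sums were 209 to 516 and 240 to 309 CPM. Oligodendrocyte markers summed to 155 to 1093 CPM and astrocyte markers to 193 to 485 CPM.

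The members were chosen by these 2 chemokines, so their levels are a description with no test. Ccl3 in the summed members was at 5734 and 5984 CPM in the WT libraries of the Lama4 experiment, 4945 CPM in the Lama4-/- library, 4165 and 4209 CPM in both WT libraries made for Lama5, and 4446 and 4452 CPM in the Tek-Cre:Lama5-/- libraries. Ccl4 in the same order was at 10063 and 10491 CPM, 9113 CPM, 7865 and 7994 CPM, and 8551 and 8504 CPM. Within members Ccl3 made up 34.2% to 36.3% of the UMIs of the pair, a narrow range over all 7 libraries. Low cells held 161 to 455 CPM of Ccl3 and 195 to 357 CPM of Ccl4. Cells with an endothelial gate, which should lack both, held 12.9 to 31.1 CPM of Ccl3 and 27.0 to 69.5 CPM of Ccl4. A share of 12.6% to 42.9% of these endothelial cells had at least 1 UMI of the pair at median depths of 2786 to 6108 UMIs, against 51.9% to 74.9% of low cells. At 20 CP10k at most 0.523% of endothelial cells of any library would have passed. Cells with a macrophage gate also carried the pair, with 1822 to 2797 CPM of Ccl3 and 1197 to 2608 CPM of Ccl4.

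**Figure D1:**
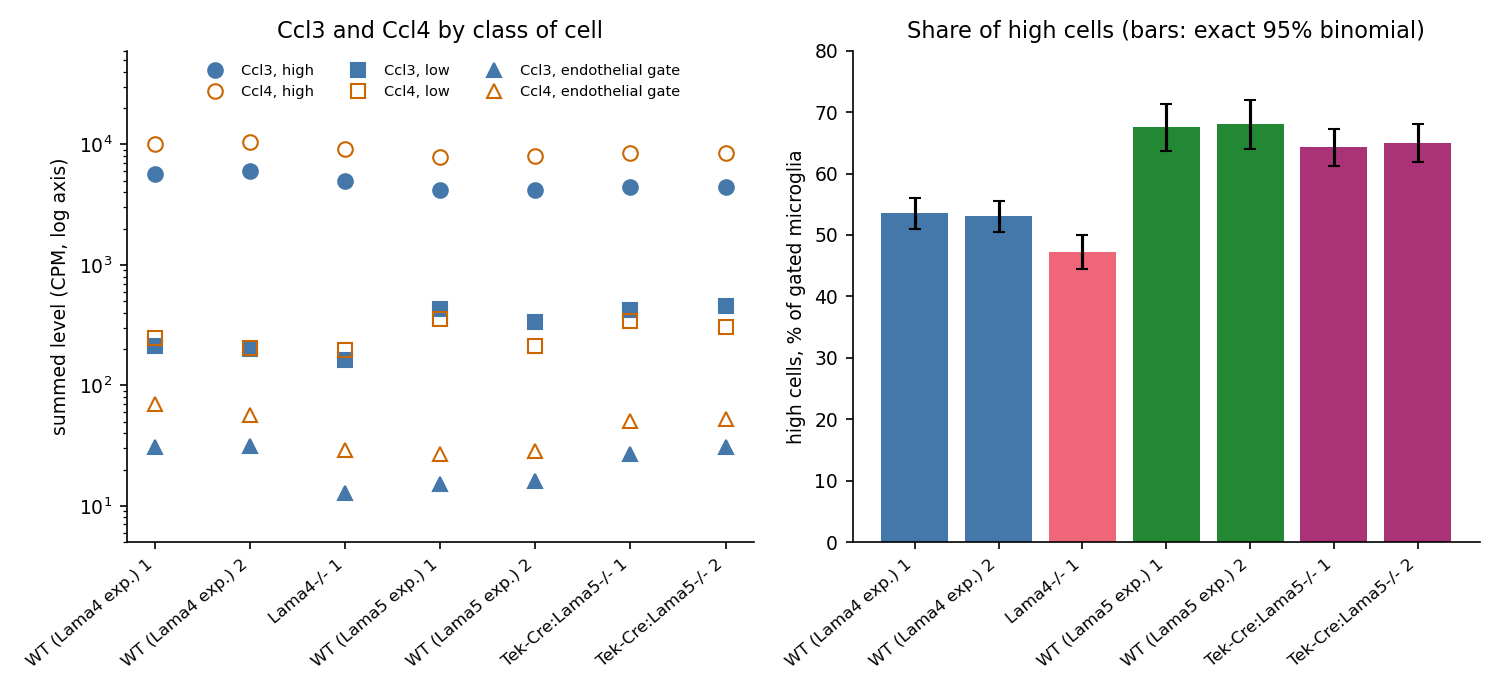
Left, Ccl3 and Ccl4 in CPM on a log axis for each of the 7 libraries, summed over high cells, low cells and cells with an endothelial gate. Right, high cells as a percentage of gated microglia with exact 95% binomial intervals, from 47.3% in the Lama4-/- library to 68.1% in a WT library of the Lama5 experiment.

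Per cell, the 2 genes together spanned 20.01 to 908 CP10k in members, with a median of 93.9 and quartiles of 46.3 and 183. The boundary at 20 CP10k did not fall in a gap: 250 members lay between 20 and 25 CP10k, and 269 low cells lay between 15 and 20 CP10k. The gated cells numbered 1437 above 0 to 10 CP10k, 650 at 10 to 20 and 869 at 20 to 40. The boundary therefore cuts a continuous measure. Whether the members form a separate cluster was not tested. Both genes were detected in 3828 members (89.9%), Ccl3 alone in 168 and Ccl4 alone in 261. Some cells carried much of 1 gene and none of the other. Of gated cells with at least 20 UMIs of Ccl4, 44 of 622 and 39 of 595 in the WT libraries of the Lama4 experiment had no Ccl3 UMI, as did 47 of 404 in the Lama4-/- library. In the Lama5 experiment these cells were 3 of 176 and 2 of 153 in WT and 2 of 261 and 2 of 242 in Tek-Cre:Lama5-/-. The share was 6.55% to 11.6% in the 3 libraries of the first experiment and 0.766% to 1.70% in the 4 of the second, and the ranges did not overlap. Median member depth was 6051 to 7670 UMIs in the first experiment and 3074 to 3906 in the second. A fixed count of 20 UMIs is thus a lower CP10k in the first, so the sets of cells are not alike. Over all cells with at least 20 UMIs of Ccl4, the median Ccl3 count was 24 to 33 UMIs in the first experiment and 17.5 to 20 in the second. The reverse case, at least 20 UMIs of Ccl3 and no Ccl4, made up 4.12% to 7.96% in the first experiment and 0 to 2.26% in the second. The 0 came from 97 and 153 cells, and its exact 95% upper bounds were 3.73% and 2.38%. These are per-cell counts from few libraries and were not tested.

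The share of gated microglia that were members was 53.6% and 53.0% in the WT libraries of the Lama4 experiment and 47.3% (exact 95% binomial interval 44.5% to 50.02%) in the Lama4-/- library. It was 67.6% and 68.1% in both WT libraries made for Lama5 and 64.3% and 65.0% in the Tek-Cre:Lama5-/- libraries. Tek-Cre:Lama5-/- was thus lower than its WT by 3.17 percentage points (64.7% ± 0.476 against 67.8% ± 0.310, SD, n = 2 each; exact permutation p = 0.333, two-sided, the smallest that 2 against 2 libraries allow). With the boundary at 10 CP10k the difference was −0.69 points and the libraries overlapped, with an exact permutation p of 1. After thinning every cell to 1500 UMIs, which left out 95 and 104 gated cells of WT and 121 and 111 of Tek-Cre:Lama5-/-, it was −2.24 points. The WT libraries of both experiments differed by 14.6 points (exact permutation p = 0.333), more than either knockout differed from its own WT. At 40 CP10k that difference was 6.75 points. As a share of all kept cells, members were 14.8% and 14.9% in WT and 11.4% in Lama4-/-, and 4.66% and 4.37% in WT and 7.75% and 7.06% in Tek-Cre:Lama5-/-. This second share depends on how many cells of every other type were recovered.

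Ccl3 and Ccl4 can be tested between genotypes only where the boundary was not used. Over all gated microglia, high and low together, Ccl3 was at 3030 and 3164 CPM in WT and 3139 and 3172 CPM in Tek-Cre:Lama5-/-, and Ccl4 at 5583 and 5893 CPM in WT and 5886 and 5877 CPM in Tek-Cre:Lama5-/-. The libraries of both genotypes overlapped on this scale. edgeR's quasi-likelihood test, which scales the libraries by TMM, gave a log2 fold change of 0.11 (SE 0.0334, adjusted p = 0.0163; 13.8% of the 9690 genes tested were called, 8.67% higher and 5.09% lower) for Ccl3 and 0.12 (SE 0.0325, adjusted p = 0.00735) for Ccl4. With library totals left unscaled the values were 0.02 (adjusted p = 0.724) and 0.03 (adjusted p = 0.585). Neither passed without cells carrying markers of other types (adjusted p = 0.216 and 0.0968) or without the first WT library (adjusted p = 0.212 and 0.159), and Ccl3 did not pass without the second Tek-Cre:Lama5-/- library (adjusted p = 0.0653). With at least 1000 genes and under 10% mitochondrial UMIs per cell Ccl4 did not pass either (adjusted p = 0.0550). Gm42418, a gene that overlaps ribosomal RNA, took 2.25% and 2.14% of member UMIs in WT and 4.05% and 4.4% in Tek-Cre:Lama5-/-, and 0.449% to 0.486% in the Lama4 experiment. Its part in the scaling was not tested.

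High and low cells of the same library were then compared for the genes outside the membership rule. The high cells carried more RNA of interleukin 1, TNF, other chemokines, NF-kB inhibitors and part of the immediate early genes, and less RNA of astrocyte and oligodendrocyte genes. Of 10288 genes tested with edgeR's quasi-likelihood test and the library as a block, 999 (9.71%) passed an adjusted p of 0.05, 748 higher (7.27%) and 251 lower (2.44%). Of these, 58 were higher and 68 lower by a log2 of 1 or more in size. The high cells were higher in 7 of 7 libraries for 276 of the 748 and lower in 7 of 7 for 133 of the 251. With only the 4 WT libraries, an alternative added after seeing the data, 536 genes were called, 410 of them higher.

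Among the chemokine ligands, 8 of 11 tested were higher and none lower, where 7.27% of all genes were higher. Their median log2 fold change was 1.00, beside 0.0033 over all genes tested. Ccl2, which attracts monocytes, stood at 211, 152, 197, 265, 254, 372 and 315 CPM in the high cells, with the libraries in the order given above for Ccl3. In the low cells of the same libraries it was at 114, 80.9, 53.5, 125, 109, 97.0 and 111 CPM. The high cells were higher in every library, as the naming rule required, and the lowest of them lay above the highest low value. The log2 fold change was 1.42 (SE 0.104, adjusted p = 1.96e-08). Cxcl10, a ligand of Cxcr3 on T cells, was at 249, 271, 179, 391, 333, 232 and 199 CPM in high cells and at 175, 144, 161, 30.8, 18.5, 20.6 and 11.7 CPM in low cells. The log2 ratio of high over low cells was 3.46 to 4.14 in the 4 libraries of the Lama5 experiment and 0.15 to 0.91 in the 3 of the Lama4 experiment. The log2 fold change over all libraries was 1.47 (SE 0.289, adjusted p = 0.00213), and the difference between experiments was not tested. Cxcl2, a neutrophil attractant, was at 38.4 to 198 CPM in high cells and at 1.96 to 65.0 CPM in low cells. It was higher in 6 of 7 libraries (log2 1.43, adjusted p = 0.00691), and the exception was the Lama4-/- library. Ccl12, another ligand for monocytes, and Cxcl16, a membrane-bound chemokine, rose by log2 values of 1.00 and 0.85. Ccl7 rose by 1.92, from at most 5.84 CPM in low cells to a range of 2.52 to 53.2 CPM in high cells.

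The neighbours of Ccl3 and Ccl4 on chromosome 11 did not all pass. Ccl9 rose from a mean of 138 to 193 CPM (log2 0.59, adjusted p = 3.38e-06) and Ccl6 from 75.01 to 83.3 CPM (log2 0.27, adjusted p = 0.00768, and 0.0721 without the second WT library of the Lama4 experiment). Wfdc17, on the other side of Ccl4, was at 1.12 CPM in low and 5.46 CPM in high cells (log2 1.90, adjusted p = 0.00462). Ccl5 had a log2 value of 1.65 and an adjusted p of 0.0985. Heatr6, which lies beyond Wfdc17, averaged 29.6 and 29.4 CPM (adjusted p = 0.732).

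Of 8 tested chemokine and chemoattractant receptors, 3 were higher and none lower. Ccrl2, an atypical receptor that presents chemerin, was at 724, 776, 562, 194, 181, 74.9 and 91.3 CPM in high cells against 315, 328, 295, 55.4, 39.0, 17.6 and 37.4 CPM in low cells. Each library showed the same direction, as the naming rule required, on a level that differed several times over between experiments (log2 1.40, SE 0.0873, adjusted p = 2.49e-09). The complement peptide receptors C5ar1 and C3ar1 rose by 0.94 and 0.77 on the log2 scale. Ccr1 did not exceed 14.3 CPM in any sum of high cells.

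Cytokines and growth factors had 7 of 11 tested genes higher and none lower. Il1b, the interleukin cleaved after inflammasome activation, had the largest fold change of the genes the naming rule took. It was at 58.6, 82.2, 68.6, 232, 257, 219.5 and 179 CPM in high cells and at 6.36, 4.34, 8.96, 46.2, 67.8, 55.9 and 24.5 CPM in low cells. Low cells of the Lama5 experiment reached the level of high cells of the Lama4 experiment, so the classes overlapped across experiments but not within one. The log2 fold change was 2.87 (SE 0.169, adjusted p = 9.58e-10). Il1a, the other interleukin 1, was at 308, 300.3, 190.2, 558, 539.9, 674 and 621 CPM in high and at 97.6, 107, 79.3, 249, 218, 214 and 197 CPM in low cells (log2 1.58, SE 0.0606, adjusted p = 2.47e-12). Tnf was at 368, 353, 294, 395, 416, 433 and 419 CPM in high and 126, 139, 116, 197, 222, 161 and 155 CPM in low cells, and here all 7 high values lay above all 7 low values (log2 1.43, SE 0.0647, adjusted p = 2.49e-11). Csf1, a ligand of the receptor on which microglia depend for survival, was at 60.5 to 108 CPM in high and 16.4 to 44.6 CPM in low cells, again without overlap (log2 1.69, SE 0.0805, adjusted p = 4.17e-11). Tnfsf9, a member of the TNF ligand family, was at 7.54 to 65.2 CPM in high cells and 4.90 to 15.4 CPM in low cells and rose by 1.84. Osm and Pdgfb rose by 1.13 and 0.54. Tgfb1 was at 324 to 349 CPM in high cells and 357 to 418 CPM in low cells, with an adjusted p of 0.404. Il6 did not exceed 14.7 CPM in either class.

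**Figure D2:**
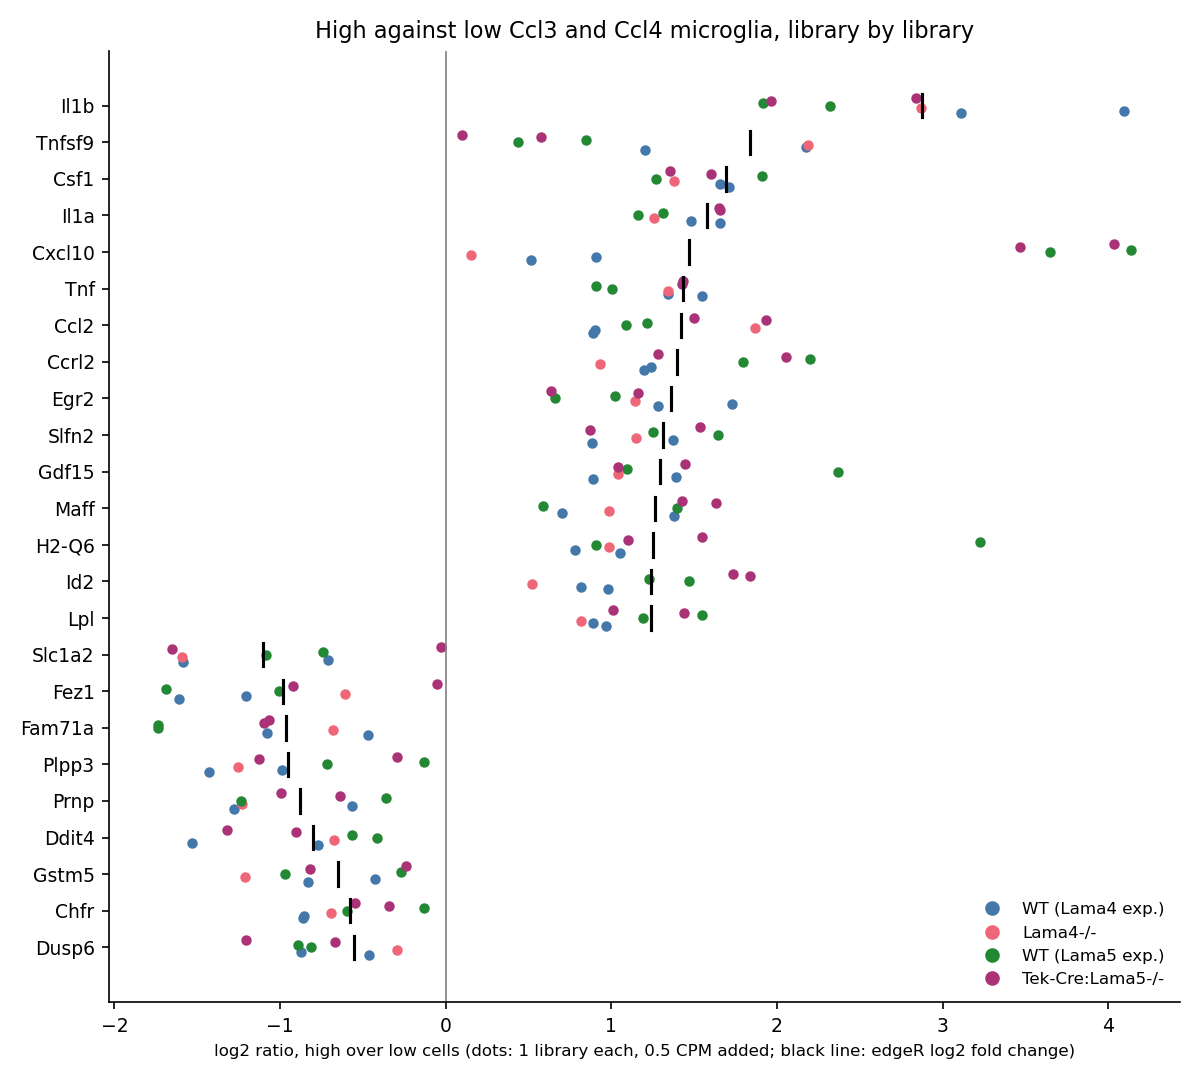
Log2 ratio of high over low cells for 15 higher and 9 of the 10 lower genes that the naming rule took, with 1 dot per library (0.5 CPM added) and a black line at the edgeR log2 fold change. The naming rule required all 7 dots on 1 side of 0 for each gene. Il1b runs from 1.91 to 4.09, while Slc1a2 and Fez1 each have 1 Tek-Cre:Lama5-/- dot next to 0.

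Of the NF-kB subunits, inhibitors and targets, 26 of 28 tested genes were higher and none lower, with a median log2 fold change of 0.78. Nfkbiz, Nfkbid and Nfkbia, inhibitory or modulating IkB proteins, rose by 1.12, 0.94 and 0.51, and Tnfaip3, an enzyme that shuts the pathway off, by 0.93. Nfkbiz was at 355, 368, 234, 822, 749.5, 512 and 517 CPM in high and at 163, 137, 114, 440, 353, 312 and 312 CPM in low cells, higher in 7 of 7 libraries. The subunits rose less, Nfkb1 by 0.47, Rel by 0.58, Relb by 0.44 and Rela by 0.25. Cd83, a surface protein of activated antigen-presenting cells, was at 904 to 2005 CPM in high and 511 to 703 CPM in low cells, without overlap (log2 1.20). Tlr2 and Cd14, receptors for microbial products, rose by 0.95 and 0.80. Sod2 and Tnip1 did not pass. With DESeq2 Nfkb2, Nfkbie and Ptgs2 lost their calls (adjusted p = 0.151, 0.115 and 0.246). In the WT libraries alone Nfkb2 and Rela did not pass (adjusted p = 0.470 and 0.105). Nfkb2 also did not pass with the boundary at 10 CP10k or without cells carrying markers of other types (adjusted p = 0.0605 and 0.0974). The counts of Bcl2a1a, Bcl2a1b and Bcl2a1d are uncertain, because reads of these near-identical copies can be split between them.

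**Figure D3:**
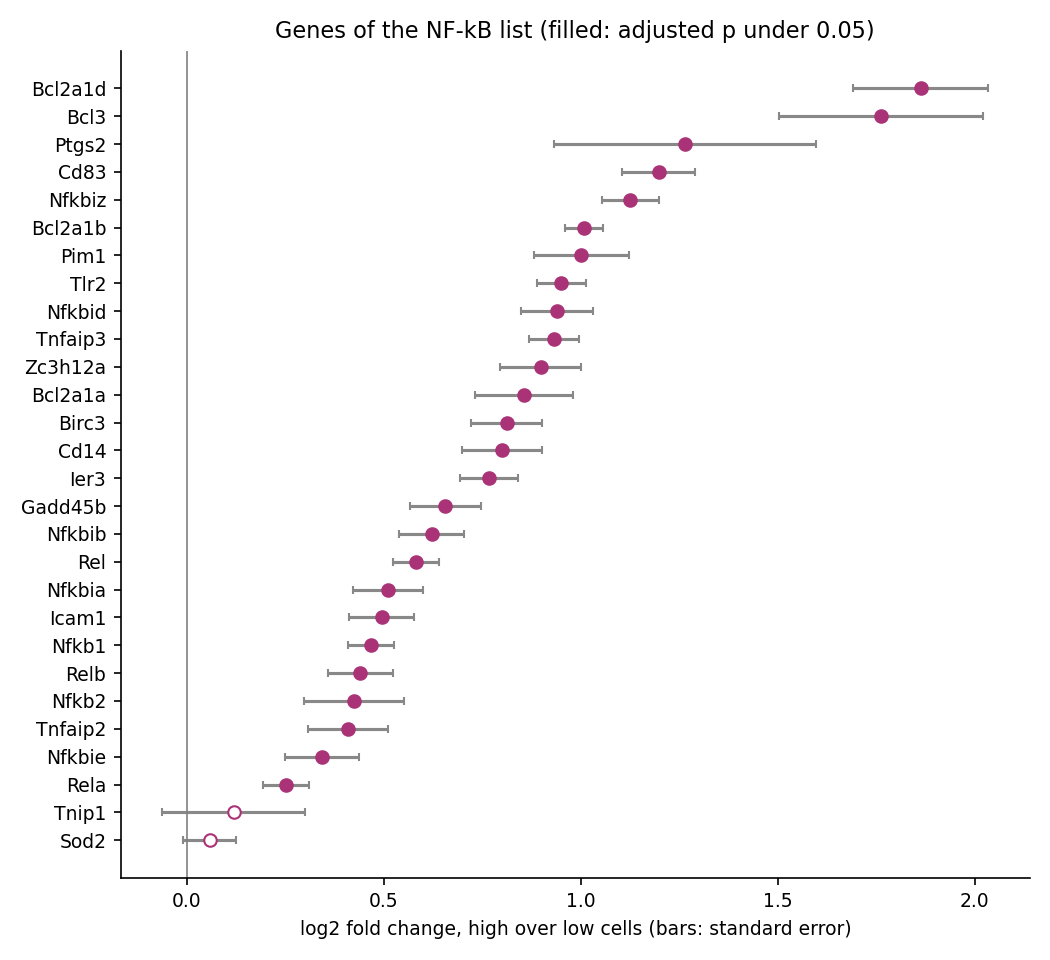
Log2 fold change of high over low cells with its standard error for the 28 tested genes of the NF-kB list. Filled points passed an adjusted p of 0.05, and the open points are Sod2 and Tnip1.

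Immediate early genes divided, with 16 of 24 higher and none lower. The transcription factors Egr2 and Egr3 rose by 1.36 and 1.38, Maff by 1.26 and Atf3 by 0.62. Fos, a subunit of AP-1, was at 529, 559.6, 598, 1013, 989, 739 and 805 CPM in high and 382, 454, 384, 1894, 1889, 1176 and 1349.7 CPM in low cells. Its value in high cells was the higher one in the 3 libraries of the Lama4 experiment and the lower one in the 4 of the Lama5 experiment, and over all libraries it had an adjusted p of 0.709. Jun and Fosb did not pass either. Heat shock and chaperone genes were called higher in 2 of 14 cases, Hspa5 by 0.22 and Hspb1 by 0.29. With no filter on low counts 9 were higher and 1 lower, and with low cells under 5 CP10k 4 were higher. Hspb1 did not pass without the second WT library of the Lama4 experiment or without the Lama4-/- library (adjusted p = 0.0573 and 0.0914). Of the genes known to respond to dissociation in microglia, 11 of 23 were higher and none lower, and 16 of the listed genes stand in other lists as well.

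Of 17 homeostatic genes tested outside the rule, none was higher and 3 were lower, with a median log2 fold change of −0.04. P2ry13, a purine receptor, was at 202 to 406 CPM in high and 267 to 512 CPM in low cells and lower in high cells of every library (log2 −0.23, adjusted p = 0.00199). Sall1, a transcription factor of microglial identity, had a log2 value of −0.17, and Olfml3 had −0.12. Only P2ry13 was called with DESeq2 or with the boundary at 10 CP10k, and no homeostatic gene with the WT libraries alone. Sall1 lost its call when any library but the second WT library of the Lama4 experiment was left out (adjusted p = 0.0613 to 0.123), and Olfml3 when any of the 7 was left out (adjusted p = 0.0503 to 0.180). In the set linked to disease-associated microglia, 14 of 18 were higher and none lower, with a median of 0.35. Lpl, lipoprotein lipase, was at 11.6 to 115 CPM in high and 5.998 to 49.04 CPM in low cells (log2 1.24). Apoe and Fth1 rose by 0.53 and 0.34, while Trem2 had 0.04 and did not pass. Of 7 cell cycle genes 4 were higher, and among them the proliferation markers Mki67 and Top2a had log2 values of 3.78 and 2.30 at levels of at most 6.90 and 11.2 CPM. With DESeq2, in the WT libraries alone, and without the second WT library of the Lama4 experiment or the Lama4-/- library, 2 of the 7 were higher. Top2a did not pass without that WT library (adjusted p = 0.0666).

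The remaining lists varied, where 7.27% of all genes tested were higher and 2.44% lower. In the TGF-beta pathway list 2 of 10 were higher and 1 lower. Higher were 1 of 10 interferon-stimulated genes (Ifit1), 4 of 10 MHC class I genes, 1 of 8 complement and Fc receptor genes, 3 of 15 lysosome genes and 1 of 13 laminin and matrix receptors. Over the alternatives with the library as a block, the interferon count ran from 0 to 4, the complement count from 0 to 3 and the lysosome count from 1 to 4, and Ifit1 did not pass with DESeq2 (adjusted p = 0.0725). Mfge8, which bridges dying cells to phagocytes, fell by 0.54 on the log2 scale, the 1 lower lysosome and phagocytosis gene. Without cells carrying markers of other types its log2 value was 0.08 (adjusted p = 0.776). It did not pass with DESeq2 (adjusted p = 0.431), without the second WT library of the Lama4 experiment (0.178), without the Lama4-/- library (0.156) or in the WT libraries alone (0.210). Of the laminins and other basement membrane genes none of 7 was called. H2-Q6, named for its rise of 1.25, and H2-Q7 are close copies whose counts are uncertain. Of the other named genes, Id2, an inhibitor of bHLH factors, was at 428 to 562 CPM in high and 157 to 308 CPM in low cells (log2 1.24). The stress cytokine Gdf15 rose by 1.29 and Slfn2 by 1.31.

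The genes lower in high cells included all 7 tested astrocyte markers and 7 of 8 oligodendrocyte markers. Slc1a2, the glutamate transporter of astrocytes, was at 29.0, 45.5, 56.0, 39.0, 34.2, 35.8 and 29.7 CPM in high and 88.0, 74.7, 169.9, 83.1, 57.5, 114 and 30.4 CPM in low cells (log2 −1.10, adjusted p = 8.57e-06). The 8 astrocyte markers summed to 193 to 485 CPM in high and 251 to 981 CPM in low cells, and the sum was lower in high cells of 7 of 7 libraries. The 8 oligodendrocyte markers summed to 155 to 1093 CPM in high and 190 to 2367 CPM in low cells, lower in high cells of 6 of 7 libraries. At most 1 astrocyte marker was at 0 in any sum of high cells. Cells with 10 CP10k or more of astrocyte, oligodendrocyte or mural markers were 4.59% to 15.3% of members and 6.42% to 23.4% of low cells. Without them Slc1a2 had a log2 value of +0.20 (adjusted p = 0.282), and Fez1, Plpp3, Prnp and Gstm5 no longer passed, with log2 values of −0.05, −0.23, −0.17 and −0.22. Fam71a, Ddit4, Chfr and Dusp6, which fell by 0.96, 0.80, 0.58 and 0.55 with all cells, still passed with values of −0.91, −0.83, −0.57 and −0.57. Ddit4 and Dusp6 encode brakes on mTOR and on ERK signalling.

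Gated cells were also divided into bands by the amount of Ccl3 and Ccl4. The last 4 bands, from 20 to 40, 40 to 80, 80 to 160 and from 160 CP10k on, held 869, 998, 1085 and 1305 members. Il1b averaged 45.3 CPM over the 7 libraries at 20 to 40 CP10k, 36.4 at 40 to 80, 87.0 at 80 to 160 and 403 from 160 on, and was higher in the last of these bands than in the first in 7 of 7 libraries. Tnf averaged 224, 245, 290.5 and 681 CPM in the same bands, also with 7 of 7 libraries. Cxcl10 averaged 67.0, 87.7, 208 and 629 CPM, with 6 of 7 libraries, and 135 CPM in the band of 10 to 20. These 3 genes had their highest means in cells from 160 CP10k on. Tgfb1 and Il16 had the opposite order, with 439 and 72.6 CPM where neither chemokine was detected and 335 and 41.3 CPM from 160 on. Cd83 averaged 403 CPM where neither chemokine was detected, 990 CPM at 20 to 40 and 1857 CPM from 160 on. Nfkbia averaged 1409.9, 1907 and 2641 CPM in those bands. Hspa1a averaged 3254 CPM at 20 to 40 and 2677 CPM from 160 on, and the last band was higher in 3 of 7 libraries. The bands were set on the chemokines themselves, so no test was made.

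**Figure D4:**
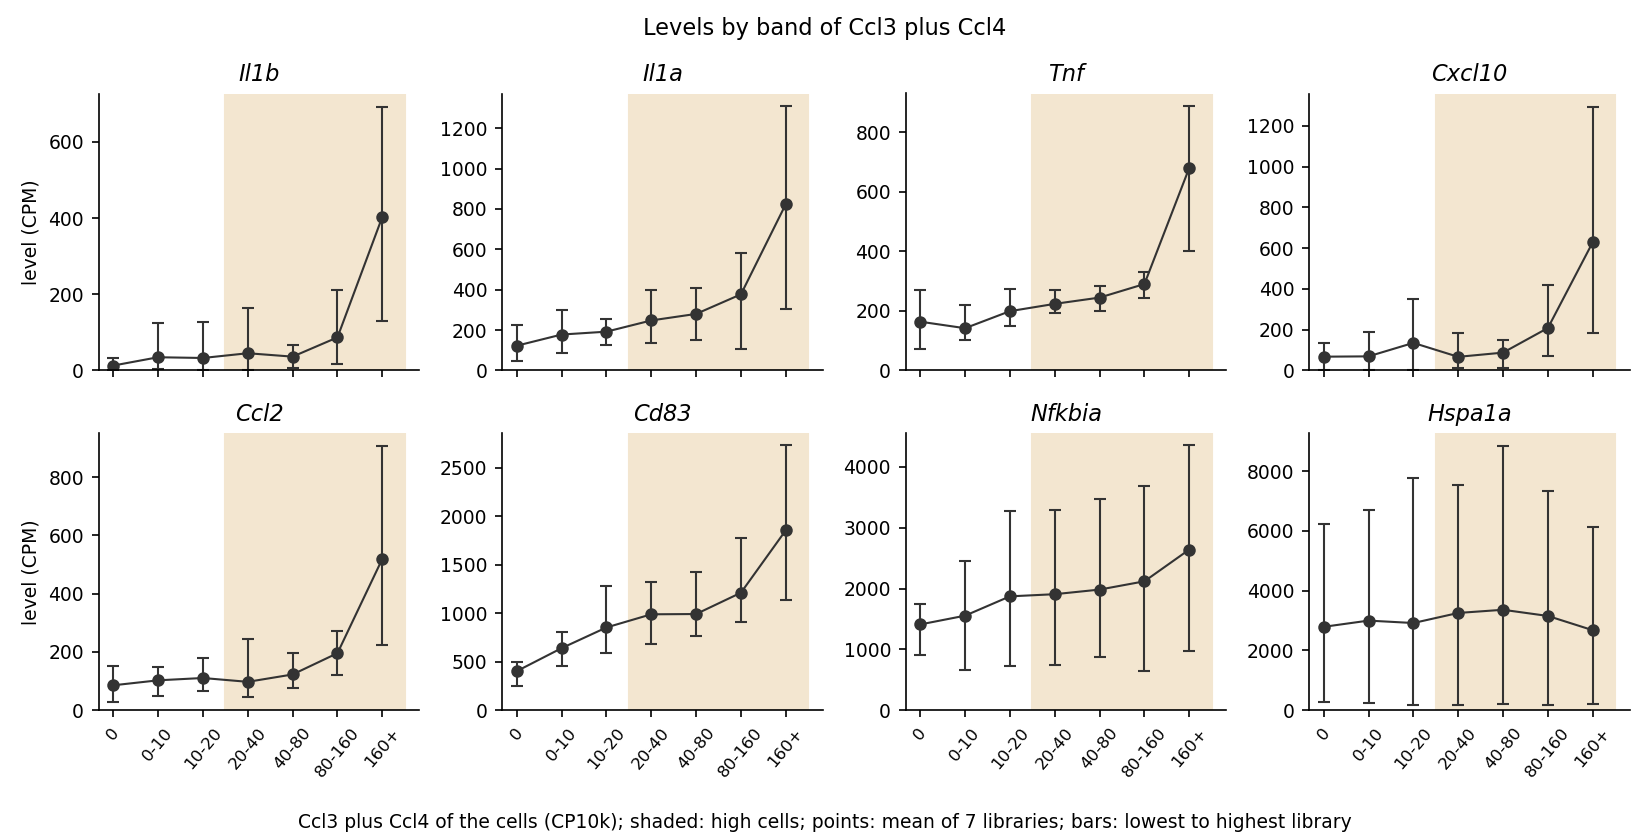
Levels in CPM of 8 genes by band of Ccl3 plus Ccl4 in CP10k, as the mean over 7 libraries with bars from the lowest to the highest library. Il1b, Tnf, Cxcl10 and Ccl2 rise mostly in the last band, Cd83 rises across all bands, and Hspa1a has wide bars in every band.

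In the Lama5 experiment, 929 of 8919 genes tested in the members differed between Tek-Cre:Lama5-/- and WT (10.4%; edgeR's quasi-likelihood test, adjusted p under 0.05), 601 higher (6.74%) and 328 lower (3.68%). Gclc and Gclm, which act in glutathione synthesis, were among the named genes with the largest rise, and the hemoglobin genes and Cxcl2 among those with the largest fall. With library totals left unscaled 346 were higher and 604 lower, and the median over all genes was −0.10, so the direction of small changes follows the scaling. DESeq2 called 289 genes, and 582 were called without the first Tek-Cre:Lama5-/- library. All comparisons below have 2 libraries per group.

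Gclc and Gclm encode both subunits of the enzyme that limits glutathione synthesis. Gclc was at 86.0 and 92.6 CPM in WT and at 214 and 206 CPM in Tek-Cre:Lama5-/- (log2 1.33, SE 0.102, adjusted p = 3.41e-16). Gclm was at 36.3 and 56.2 CPM in WT and at 119 and 108 CPM in Tek-Cre:Lama5-/- (log2 1.41, SE 0.144, adjusted p = 1.48e-11). Osgin1, an oxidative stress response gene, was at 24.2 and 22.0 CPM against 67.4 and 71.0 CPM (log2 1.66, adjusted p = 3.97e-10). Both knockout libraries lay above both WT libraries for each of these genes, as the naming rule required. Txnrd1, thioredoxin reductase, which the rule named for the comparison of WT pools, was at 366 and 334 CPM against 660.4 and 641 CPM (log2 0.98, adjusted p = 4.17e-20). In all, 18 genes of these reactions and of iron handling were looked up after values were seen, those above included. Of the 16 tested, 14 were higher and none lower, a count that describes a list picked on these data. Srxn1, Slc7a11 and Slc40a1 among them had log2 values of 1.44, 1.21 and 1.00, and Slc7a11 did not pass without the first WT library (adjusted p = 0.0690). Gsr and Tkt did not pass (adjusted p = 0.122 and 0.679). Nqo1, a quinone reductase, had no UMI in the members of these 4 libraries, where a count of 0 allows 1.41 to 2.28 CPM (3 counts per library), and Me1, malic enzyme, was at 1.34 CPM or less. Both were too low to test. The members of the Lama4-experiment WT libraries held 42.1 and 42.2 CPM of Txnrd1, so the WT pools stood farther apart than the genotypes. For Gclc those libraries had 51.0 and 57.1 CPM and for Gclm 33.7 and 37.8 CPM.

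The other named genes with higher levels were Lmna (nuclear lamin), Prdm1 (a transcription repressor), Fam102a, Sh3bp2 and Ttr. Lmna was at 29.6 and 25.8 CPM in WT and 77.2 and 83.1 CPM in Tek-Cre:Lama5-/- (log2 1.61, adjusted p = 7.90e-11). Prdm1 was at 53.8 and 57.7 CPM against 121 and 108 CPM (log2 1.14, adjusted p = 6.50e-10). Fam102a and Sh3bp2 rose by 1.38 and 1.09. Ttr, the transthyretin of the choroid plexus, had 1 UMI in the members of both WT libraries together and 421 in those of the knockout, a ratio of 299.7 with an exact 95% counting interval of 53.5 to 11865. Summed markers of the choroid plexus were at 24.2 and 18.2 CPM in WT members and 150 and 147 CPM in knockout members, and 3 of the 5 were at 0 in each WT library. The part of choroid plexus RNA in other calls was not tested.

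Of the immediate early genes, 10 of 24 were lower and 5 higher, and with library totals unscaled 12 were lower and 3 higher. Egr3 was at 60.5 and 44.8 CPM in WT and 22.6 and 28.6 CPM in Tek-Cre:Lama5-/- (log2 −0.97, adjusted p = 0.000276), and without the first WT library its adjusted p was 0.0539. Ier2, Btg2, Jun and Fos had log2 values of −0.83, −0.65, −0.39 and −0.29. Fos did not pass with the boundary at 40 CP10k (adjusted p = 0.0908), where 3 genes of the list were higher. Klf6 and Fosb were among those that rose, by 0.54 and 0.41. In the NF-kB list 7 of 28 were lower and 2 higher, and 10 lower and 2 higher unscaled. Nfkbia was at 1543 and 1489 CPM in WT and 816 and 868 CPM in Tek-Cre:Lama5-/- (log2 −0.76, adjusted p = 3.96e-20). Nfkbid, Tnfaip3 and Nfkbiz had log2 values of −0.89, −0.55 and −0.52, while the subunits Nfkb1, Rel, Rela and Relb did not pass.

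Chemokine ligands divided, with 2 of 10 higher and 2 lower, the same counts unscaled. Cxcl2 was at 198 and 118 CPM in WT and 47.1 and 63.3 CPM in the knockout (log2 −1.45, adjusted p = 5.85e-12), and Cxcl10 had −0.66. Ccl2 was at 265 and 254 CPM against 372 and 315 CPM (log2 0.50), and Ccl7 had 1.19. Of 6 receptors 2 were lower and 1 higher. Ccrl2 was at 194 and 181 CPM against 74.9 and 91.3 CPM (log2 −1.09, adjusted p = 3.54e-12). C5ar1 rose by 0.43. Of 10 cytokines, Il1a and Pdgfb rose by 0.33 and 0.43 and Il16 fell by 0.84 (adjusted p = 0.153 without the second Tek-Cre:Lama5-/- library), whereas Il1b (log2 −0.19, adjusted p = 0.163) and Tnf (log2 0.16, adjusted p = 0.0841) did not pass.

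Of 17 homeostatic genes tested, 8 were lower and none higher, among them Selplg (−0.34), Sall1 (−0.40) and Csf1r (−0.19), and 10 were lower with library totals unscaled and 5 with DESeq2. Sall1 did not pass without the second WT or the second Tek-Cre:Lama5-/- library (adjusted p = 0.0617 and 0.178). Heat shock genes were higher in 6 of 14 and lower in 2. The lower ones were Hspa1b, at 192 and 209.6 CPM in WT and 98.0 and 95.7 CPM in Tek-Cre:Lama5-/- (log2 −0.96), and Hspa1a (log2 −0.51), near-identical copies whose counts are uncertain. Of the genes known to respond to dissociation, 11 of 22 were lower and 3 higher. Of 12 laminin and matrix receptors, 3 were higher and 1 lower, and 3 higher and 5 lower unscaled, and with DESeq2 1 was higher. Cd44, a hyaluronan receptor, was at 2.02 and 1.52 CPM in WT and 13.7 and 10.5 CPM in the knockout, and did not pass without the first Tek-Cre:Lama5-/- library (adjusted p = 0.0709). The integrin chains Itga5 and Itgav rose by 1.04 and 0.60. Itgb5 was at 726 and 746 CPM in WT and 497 and 508 CPM in the knockout (log2 −0.46, adjusted p = 2.09e-09).

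The hemoglobin genes Hbb-bs, Hba-a1 and Hba-a2 were lower in the knockout. Hbb-bs was at 251 and 273 CPM in WT and 41.9 and 31.9 CPM in Tek-Cre:Lama5-/- (log2 −2.72, adjusted p = 1.24e-27). The erythroid markers summed to 410 and 412 CPM in WT and 68.3 and 55.6 CPM in knockout members, and 1 of the 5 was at 0 in each library. The part of erythroid and mural RNA in other calls was not tested. Mural markers were lower in 4 of 5 tested genes and higher in 1. Their sum was 362 and 140 CPM in WT and 66.4 and 182 CPM in the knockout, so the sums overlapped. Reads of Hba-a1 and Hba-a2 can be split between them. Tagap, a regulator of small GTPases, was at 208 and 222 CPM in WT and 100.3 and 92.4 CPM in the knockout (log2 −1.06).

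**Figure D5:**
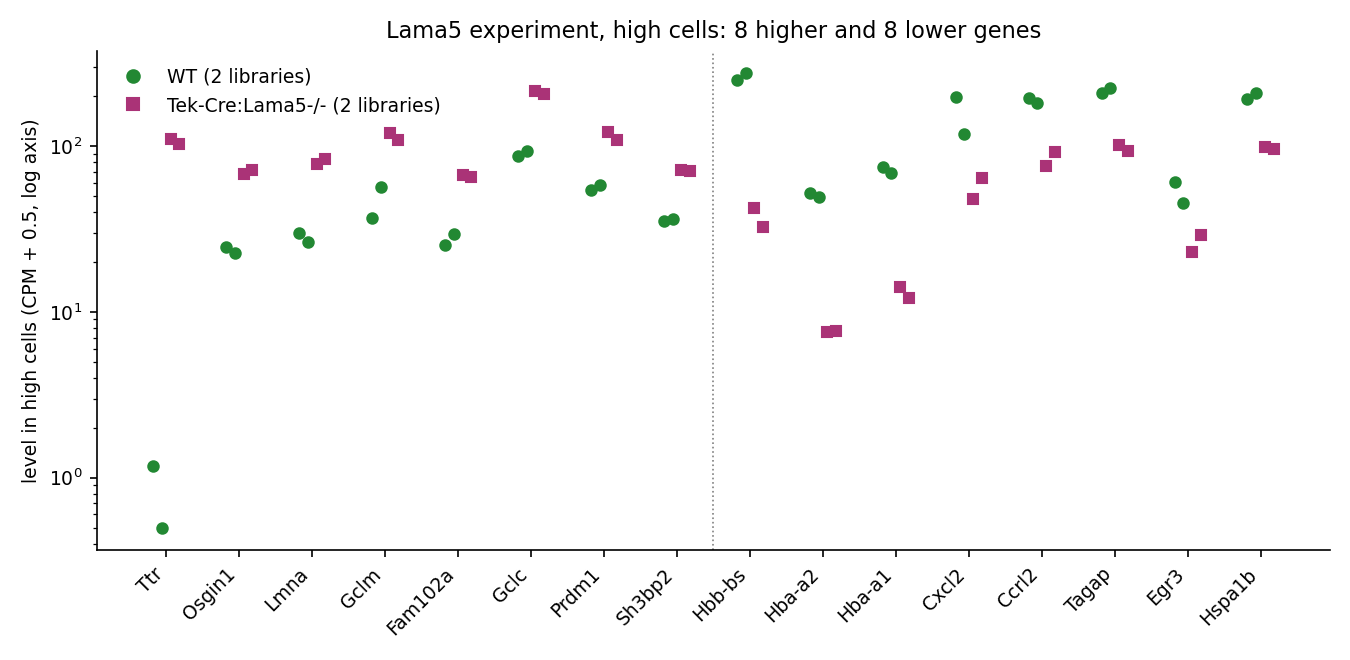
Levels in the high cells of the Lama5 experiment in CPM plus 0.5 on a log axis for the 8 higher and 8 lower genes that the naming rule took, with 1 symbol per library. The 2 Tek-Cre:Lama5-/- libraries and the 2 WT libraries do not overlap for any of these 16 genes, because the naming rule required it.

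The change from low to high cells was also compared between genotypes in the Lama5 experiment. Of 8797 genes tested with edgeR, 9 (0.102%) passed an adjusted p of 0.05, 8 with a larger value in Tek-Cre:Lama5-/- (0.0909%) and 1 with a smaller one (0.0114%), and 536 had an unadjusted p under 0.05. DESeq2 called none, with 26 at an unadjusted p under 0.05. Without the second Tek-Cre:Lama5-/- library 5 were called, without the first Tek-Cre:Lama5-/- library 30, and without the first WT library 34. Hmox1, heme oxygenase, had high-over-low log2 ratios of −0.17 and −0.13 in WT and 0.94 and 0.73 in Tek-Cre:Lama5-/- (interaction 1.00, SE 0.180, adjusted p = 0.00724). Hspa1a was lower in high cells in all 4 libraries, by log2 values of −1.30 and −0.90 in WT and −0.11 and −0.34 in Tek-Cre:Lama5-/- (interaction 0.92, adjusted p = 0.000200).

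The members of the WT pools of both experiments were also compared, to give the size of a difference between pools of the same genotype. Of 10420 genes tested in the members, 4615 (44.3%) passed, 2406 higher in the Lama5-experiment WT (23.1%) and 2209 lower (21.2%). The members of the Lama4-experiment WT libraries held 6669.7 and 7135 CPM of Hspa1a, an inducible heat shock protein, against 307 and 320.5 CPM in the other pool (log2 −4.68), and Hspb1 had −3.46. In the other direction Sertad1, Hexim1 and Nasp were higher by 3.15, 3.06 and 3.04, Gadd45a, a DNA damage gene, by 2.77 and Sesn2 by 2.84. Klf2 was at 377 and 380.2 CPM against 1809 and 1892 CPM. Of the homeostatic genes 13 of 17 were lower and 3 higher, and of the lysosome genes 14 of 15 were lower and 1 higher. Il1b had a log2 value of 1.57 and Ccrl2 of −2.22, while Tnf (−0.05, adjusted p = 0.486) did not pass. Pool of mice, experiment and processing cannot be told apart in this comparison. Of the 929 genes called between Tek-Cre:Lama5-/- and its WT, 925 were also tested here, and for 539 of them (58.3%) the difference between WT pools was at least as large, beside 70.6% over all genes tested in both. Both comparisons share the WT libraries of the Lama5 experiment.

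The Lama4-/- group has 1 library, so no test was made. By a rule of size, 50 CPM or more in either group and a log2 ratio of 1 or more in size against each WT library, 7 of 2935 genes (0.239%) passed, 2 higher (0.0681%) and 5 lower (0.17%). Ttr was at 1204 CPM in Lama4-/- members against 142 and 108 CPM, and Enpp2, also made by the choroid plexus, at 101 CPM against 19.8 and 13.97 CPM. Choroid plexus markers summed to 1319 CPM in the Lama4-/- members and to 166 and 125 CPM in WT, with none of the 5 at 0. The lower genes were Hba-a1, Hba-a2, Hbb-bs, Tagln and AC160336.1. Hbb-bs was at 22.4 CPM against 99.7 and 518 CPM, so the WT libraries themselves differed widely. Erythroid markers summed to 34.4 CPM in Lama4-/- members against 163 and 846 CPM in WT. In low cells they summed to 695 CPM against 157 and 202 CPM, the reverse order. Mural markers summed to 156 CPM against 457 and 221 CPM in members, and to 504 CPM against 203 and 650 CPM in low cells. The source of this RNA was not tested. Without the second WT library 19 genes passed, and without the first 10.

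None of the chemokines, cytokines or NF-kB genes passed that rule. Of the 25 NF-kB list genes at 20 CPM or more, 23 were below both WT libraries and none above both, where 33.0% of the 5707 genes at that level were below both and 48.2% above both. The list's median log2 ratio was −0.30 against the first and −0.29 against the second WT library, and 0.05 between the WT libraries. Nfkbiz was at 234 CPM in Lama4-/- against 355 and 368 CPM, Tlr2 at 139.8 against 193 and 199 CPM, and Ier3, an early response gene, at 649 against 906 and 945 CPM. Il1a was at 190.2 CPM against 308 and 300.3 CPM, and Tnf at 294 against 368 and 353 CPM. Homeostatic genes lay above both WT libraries in 13 of 17 cases. Across 2757 genes the log2 ratios of the Lama4-/- library had an SD of 0.236 and 0.243 against the WT libraries and 0.130 between these. A difference of this kind in 1 library has no replicate check.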

How the data were processed

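Single-cell 3' RNA libraries (Chromium, version 3 chemistry) of mouse cortex were deposited by the authors as raw UMI counts per gene and cell. The matrices came from Cell Ranger 3.1.0, per the file headers, and the submitters' processing notes name mm10 and Seurat 3.1. Both Lama4-/- samples held identical matrices and entered once. Of 31053 gene IDs, 99.6% matched GENCODE M21. No doublet caller was run; an alternative removed cells with markers of other types. Counts were summed per library and state and tested with edgeR 4.0.16 (quasi-likelihood, filterByExpr, TMM, R 4.3.3), with DESeq2 1.42.0 as an alternative; CPM were taken over all counts. The 18 genes of the membership rule were left out of these fits. Shares were compared with exact permutation tests (scipy 1.17.1). Intervals cover counting error only.

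Named genes were called genes with the same direction in every library and a mean of at least 20 CPM (the 15 highest and 10 lowest fold changes between high and low cells), and for genotypes and pools the 8 largest in each direction with at least 50 CPM in 1 group and no overlap of libraries. One of the lower genes is not reported here. The members and gene lists were chosen with earlier results of these data known. Nothing states that libraries of a group come from separate animals, so p-values measure only the spread between libraries, which may come from 1 pool. The labels do not say whether replicate numbers pair the samples, and the main fits between genotypes and between pools did not use them as a block. Counts were also simulated with the same dispersion for every gene and the same expected proportions in all libraries. The spread of the real libraries was not modelled, so the rates below are not the power of the real tests. For the comparison of high and low cells (10288 genes), 95% of changes of 1 and 74% of changes of 0.5 on the log2 scale were recovered. For Tek-Cre:Lama5-/- (8919 genes) these were 64% and 12%, for the WT pools (10420 genes) 62% and 14%, and for the interaction (8797 genes) 35% and 4%. False calls, in the same order of comparisons, were 7 of 176, 1 of 77, 0 of 76 and 0 of 39 calls.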

Additional observations from a re-analysis of the deposited data

Results flagged for a closer look

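For 9 genes the change from low to high cells differed between Tek-Cre:Lama5-/- and its WT by a test of the difference itself (edgeR's quasi-likelihood test, adjusted p under 0.05), and DESeq2 called none of them. The values are differences of log2 high-over-low ratios, knockout minus WT, each from 2 libraries per genotype. Of 14 heat shock genes tested, 3 were called, all higher in this difference, with 0.92 for Hspa1a, 0.80 for Hspa1b and 0.38 for Hsp90aa1. The ratios of these 3 were below 0 in all 4 libraries, and Hspa1a and Hspa1b are near-identical copies whose counts are uncertain. Hmox1, heme oxygenase, had 1.00, and Fth1, the ferritin heavy chain, had 0.29, with positive ratios of Fth1 in all 4 libraries. Cd14 had 0.49 and Rgs1, a regulator of G-protein signalling, had 0.57. Ptgds, an oligodendrocyte and meningeal gene, had 2.41, with ratios of −0.92 and −2.50 in WT and 0.55 and 0.82 in the knockout. Rgs5, a pericyte gene, had −2.71, with ratios of 0.41 and 2.23 in WT and −2.19 and −1.07 in the knockout. The Ptgds value was 0.16 with the chemokine boundary at 40 CP10k, 0.23 with it at 10 CP10k and 0.30 without cells carrying markers of other types. The Rgs5 value was 0.98 with the boundary at 40 CP10k, and Rgs5 was not among the genes tested without cells carrying markers of other types.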

How the results depend on the processing

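Settings varied were the chemokine boundary (10 or 40 CP10k), stricter cell filters, removal of cells with markers of other types, DESeq2, no filter on low counts, each library left out, and blocks. Between high and low cells, 999 genes were called with the library as a block and 13 without it; 536 were called in the WT libraries alone, and 721 to 976 with each library left out. Between Tek-Cre:Lama5-/- and WT the 929 calls became 569 with the boundary at 40 CP10k, 289 with DESeq2 and 582 to 708 with each library left out, the lowest without the first Tek-Cre:Lama5-/- library. Between WT pools DESeq2 called 2705 genes, and leaving out each library gave 3714 to 4088. The interaction gave 0 calls with DESeq2 (26 at an unadjusted p under 0.05), 23 without the filter and 5 to 34 with each library left out. For Ccl3 over all gated cells the log2 value of 0.11 was 0.062 without cells with other markers, 0.022 unscaled and 0.086 to 0.15 with each library left out. For Ccl4 the value of 0.12 was 0.10 with stricter cell filters, where it no longer passed, 0.072 without cells with other markers, 0.031 unscaled and 0.087 to 0.17 with each library left out. The Lama4-/- rule of size gave 10 and 19 genes without the first and the second WT library. Slc1a2 turned to 0.20 without cells with other markers, and Rgs5 in the interaction to 0.98 with the boundary at 40 CP10k. The causes were not tested.

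Between high and low cells the alternatives kept direction and call in 397 cases of a named gene and a setting, lost the call in 27 and reversed in 1. For Tek-Cre:Lama5-/- these were 197 and 1, for the WT pools 176 kept, and for the interaction 36 kept, 12 lost and 1 reversed. Same-numbered libraries of Tek-Cre:Lama5-/- and WT deviated with a correlation of −0.12 over 5733 genes. With 2 libraries per group this value cannot decide whether the numbers pair them. The replicate block gave 958 calls for Tek-Cre:Lama5-/-, and the crossed numbers, added after seeing the data, 1017. Depth limits genes with few UMIs, since member sums of the Lama5 experiment held 1316813 to 2122971 UMIs.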
